A study of Mus musculus and Homo sapiens with 41 samples.

Results

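The expression of 32 genes of glycolysis and of the response to low oxygen was followed in mouse myeloid progenitors that lost or gained the transcription factor PLZF (gene Zbtb16). The genes were chosen by name: 4 transporters of glucose and lactate, 12 genes of the hexokinase and phosphohexose steps, 5 pay-off enzymes, 3 genes of the lactate dehydrogenase and pyruvate step, and 8 genes of oxygen sensing. All 32 were listed among the 53756 rows of the granulocyte-monocyte progenitor (GMP) table, and all 32 were among the 20531 genes that passed the filter there. In the table of 416b cells 31 of the 32 were among 13238 genes, and 30 of them were among the 11836 genes with a mean normalized count of at least 10. Aldoc was not listed there and Ldhb was under that minimum.

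RNA was sequenced from 2 systems. GMPs were sorted as Cd34+ FcγR+ cells within the c-Kit+ Sca-1- part of marrow depleted of lineage markers. They came from lethally irradiated Cd45-1 mice that bone marrow of WT or Zbtb16 lu/lu donors (C57BL/6, Cd45-2) had reconstituted, so both genotypes had gone through transplantation. The lu/lu (luxoid) allele is a loss-of-function allele. 416b cells, a single murine Cd34+ myeloid line, carried a lentivirus with PLZF-Flag or the Empty vector, and GFP+ cells were sorted after 48 h. The GMP table holds 2 libraries per genotype, called WT 1, WT 2, lu/lu 1 and lu/lu 2 here, and the 416b table holds 1 library per condition; the age of the donors and whether animals were pooled are not given in the sources used here.

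Glycolysis splits glucose into pyruvate in the cytosol. Hexokinases trap the sugar, phosphofructokinases commit it to breakdown, the pay-off enzymes recover ATP, and lactate dehydrogenase regenerates NAD+ so that the path can run without oxygen. When oxygen falls, the prolyl hydroxylases that mark HIF-1α for destruction slow down, and HIF-1 raises many of these genes through ACGTG or GCGTG letters near their starts. Blood progenitors sit in a marrow poor in oxygen, and neutrophils and their precursors draw much of their ATP from glycolysis.

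Zbtb16 itself followed the labels. Its normalized count (reads divided by a size factor for the library) was 705 and 828 in WT and 269 and 369 in lu/lu GMPs, a log2 fold change of -1.28 ± 0.20 (SE, n = 2 per genotype; adjusted p 0.299 in limma and 4.48e-05 in DESeq2). In 416b cells it was 382 with the Empty vector and 2541 with PLZF-Flag. The depth recovered from the values was 37562999 to 40170636 reads per GMP library, and 54529788 reads with the Empty vector and 19995794 with PLZF-Flag in 416b. GMP libraries held Kit, a gene of the gate, at 6511 to 7339 and Mpo, a granule enzyme that marks GMPs, at 477330 to 552000, whereas 416b cells had Mpo at 12.1 and 3.30 and no entry for Elane. Markers of more mature cells moved with genotype: of 18 mature neutrophil genes 11 did not overlap and were higher in lu/lu, and of 14 monocyte genes 11, against 21.7% of all genes, and the summed monocyte markers were 93289 and 109640 in WT and 137080 and 128170 in lu/lu. The summed neutrophil markers were 30151, 23452, 39823 and 25354 in WT 1, WT 2, lu/lu 1 and lu/lu 2. Erythroid and megakaryocyte markers summed to 2492 and 2136 in WT 1 and lu/lu 2, which carry the same date in the column names, and to 6131 and 4178 in WT 2 and lu/lu 1. Mast cell, basophil and eosinophil markers were highest in WT 1 in 7 of 9 genes, against 27.9% of all genes, and summed to 23167, 16068, 17441 and 12790 in WT 1, WT 2, lu/lu 1 and lu/lu 2. The part of these differences in the results below was not tested, and in bulk samples fewer cells of a type and less RNA per cell cannot be told apart.

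The promoters of 6 genes on which the results turn are shown first, as the 250 bases before the start of the gene in RefSeq (build GRCm38.p6), 5′ to 3′ in the direction of transcription. Slc16a1, Hk3 and Pfkfb4 are shown because they had the smallest p-values between genotypes. Ldha, Pgk1 and P4ha1 are shown because one WT library stood apart in them. Capitals mark ACGTG and GCGTG on either strand (CACGT and CACGC on the other), the letters that HIF-1 is known to bind. The windows are Ldha, chr7:46846832-46847081 on the plus strand, Pgk1, chrX:106186850-106187099 on the plus strand, P4ha1, chr10:59323046-59323295 on the plus strand, Pfkfb4, chr9:108991652-108991901 on the plus strand, Hk3, chr13:55021386-55021635 on the minus strand, and Slc16a1, chr3:104638414-104638663 on the plus strand.
Ldha: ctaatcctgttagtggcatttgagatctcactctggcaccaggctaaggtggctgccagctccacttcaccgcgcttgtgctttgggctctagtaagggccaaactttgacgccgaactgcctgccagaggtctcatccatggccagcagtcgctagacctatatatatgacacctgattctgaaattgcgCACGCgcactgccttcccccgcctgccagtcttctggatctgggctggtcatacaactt
Pgk1: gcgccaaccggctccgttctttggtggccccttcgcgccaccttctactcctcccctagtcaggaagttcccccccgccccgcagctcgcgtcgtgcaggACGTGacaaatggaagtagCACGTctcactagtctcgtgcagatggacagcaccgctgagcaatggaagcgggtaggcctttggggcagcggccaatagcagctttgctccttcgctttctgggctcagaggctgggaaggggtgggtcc
P4ha1: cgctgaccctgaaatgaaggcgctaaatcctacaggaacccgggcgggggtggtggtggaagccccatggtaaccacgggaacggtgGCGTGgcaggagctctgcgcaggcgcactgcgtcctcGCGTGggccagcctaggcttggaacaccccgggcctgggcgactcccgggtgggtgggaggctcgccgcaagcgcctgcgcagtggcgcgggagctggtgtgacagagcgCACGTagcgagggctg
Pfkfb4: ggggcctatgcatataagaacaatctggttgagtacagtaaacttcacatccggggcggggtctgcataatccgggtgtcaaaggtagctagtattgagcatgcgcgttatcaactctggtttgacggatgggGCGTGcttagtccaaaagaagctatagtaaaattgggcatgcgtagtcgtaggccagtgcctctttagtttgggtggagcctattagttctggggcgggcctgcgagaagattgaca
Hk3: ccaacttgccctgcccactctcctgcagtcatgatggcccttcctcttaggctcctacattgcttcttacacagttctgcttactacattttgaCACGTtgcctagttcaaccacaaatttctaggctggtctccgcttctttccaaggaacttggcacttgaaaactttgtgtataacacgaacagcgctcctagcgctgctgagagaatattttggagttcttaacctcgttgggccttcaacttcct
Slc16a1: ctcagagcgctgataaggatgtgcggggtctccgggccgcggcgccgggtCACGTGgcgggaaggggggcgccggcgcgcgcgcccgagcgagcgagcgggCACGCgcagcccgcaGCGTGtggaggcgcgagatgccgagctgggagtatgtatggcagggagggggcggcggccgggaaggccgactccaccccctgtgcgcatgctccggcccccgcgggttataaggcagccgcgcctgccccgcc

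Of 30 genes with a RefSeq promoter in the table (Slc2a3 and Bhlhe40 had none), 26 held ACGTG or GCGTG in the 250 bases of the listed promoter nearest to the start of their transcript. For all 27025 genes the first listed promoter was taken, and chosen in that way 24 of 30 held either word, against 38.6% of all genes. ACGTG was then in 16 of 30 against 16.6%, and GCGTG in 15 of 30 against 28.2%. These windows also held more CG pairs, a median of 14 against 6 over all genes, and both words contain one. CACGTG, as in Slc16a1, holds ACGTG on both strands and was counted as 2. Gpi1, Tpi1, Pkm and Vegfa had neither word in the window. Bnip3 had 5 matches, and Slc16a1 and Ankrd37 had 4 each.

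With PLZF loss, none of the 32 genes passed the test between genotypes in limma, edgeR or DESeq2. Limma on log2(normalized count + 1) called 0 of 32 at an adjusted p of 0.08, as it called 0% of the 20531 genes tested, and edgeR on the recovered reads called 0 of 32 and 0%. DESeq2 called 0 of the 30 with an adjusted p, against 1.40% of 14958 genes. At an unadjusted p of 0.05, 3 of 32 passed in limma (Pfkfb4, Slc16a1 and Hk3), and 9.88% of all genes did. The lu/lu libraries both lay above both WT libraries in 4 of 32 genes, against 21.7% of all genes, and below them in 6 of 32, against 22.1%. The median log2 fold change of the list was 0.04, and that of all genes -0.01. With 2 libraries per genotype, an exact permutation test of a single gene cannot give a two-sided p under 0.333.

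**Figure D1:**
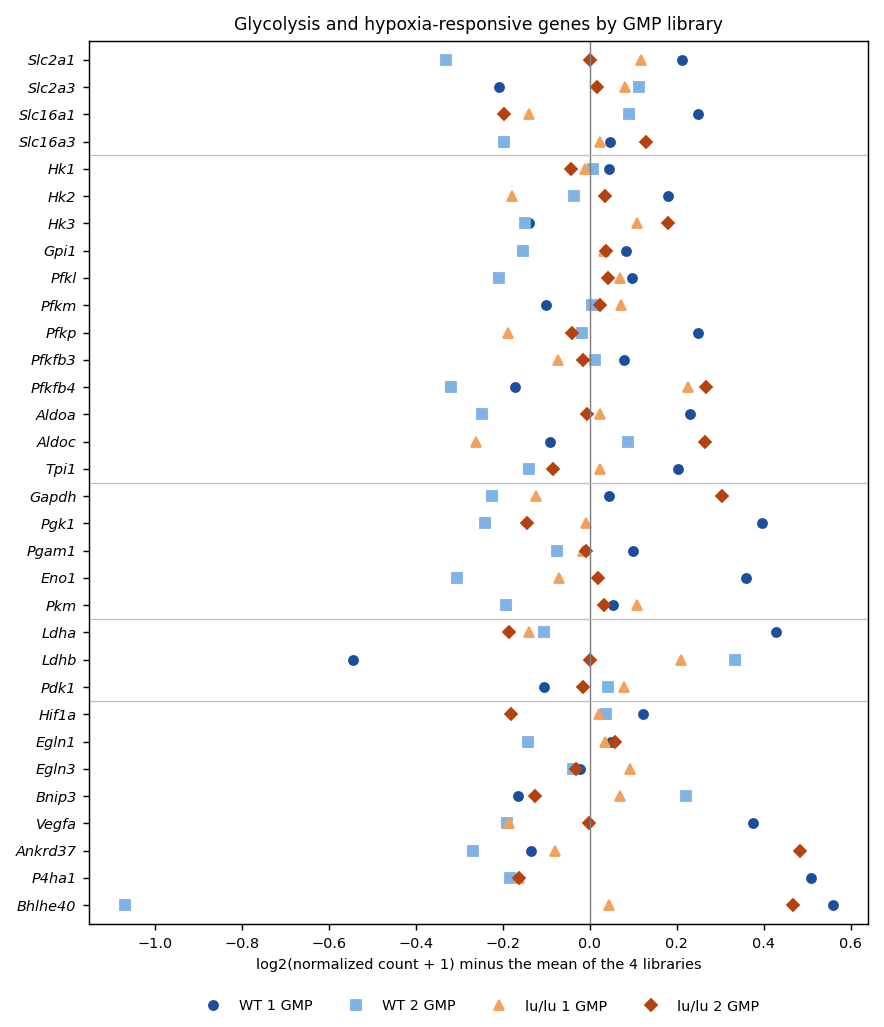
Each row is a gene and each symbol a GMP library, plotted as log2(normalized count + 1) minus the mean of the 4 libraries. WT 1 (dark circles) is the rightmost symbol in 18 of 32 rows and WT 2 (light squares) the leftmost in 19 of 32, and both lu/lu libraries lie between the WT libraries in 14 of 32, against 23.7% of all genes tested.

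Among the transporters, Slc16a1 gave the clearest difference. It encodes MCT1, a carrier of lactate and pyruvate across the plasma membrane. Its normalized count was 9112 and 8156 in WT and 6954 and 6688 in lu/lu, and the genotypes did not overlap. The log2 fold change was -0.34 ± 0.11 (SE, n = 2 per genotype) with an adjusted p of 0.439 in limma. Slc16a3 (MCT4), the lactate exporter of highly glycolytic cells, was at 739 and 624 in WT and 728 and 782 in lu/lu. The glucose carriers Slc2a1 (GLUT1; 691 and 474 in WT, 647 and 596 in lu/lu) and Slc2a3 (GLUT3; 643 and 805, 787 and 753) overlapped as well, and the WT libraries spanned the lu/lu ones in both.

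Of the 3 hexokinases, Hk3 was the most abundant per length and the only one of the 3 with higher counts in both lu/lu libraries. It is the hexokinase typical of myeloid cells. Its values were 21907 and 21776 in WT and 26026 and 27334 in lu/lu, a log2 fold change of 0.29 ± 0.11 (adjusted p 0.470 in limma). With the GC content and length trend of each library removed, the difference was 0.0881. Hk1, the broadly expressed isozyme, was at 8021 and 7821 in WT and 7723 and 7549 in lu/lu, without overlap but with a difference of only -0.05, which was -0.223 with the GC content and length trend removed, -0.0346 without WT 1 and -0.00607 with quantile normalization. Hk2, an inducible target of HIF-1, overlapped (6539 and 5633 in WT, 5102 and 5918 in lu/lu).

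The bifunctional enzymes that set the level of fructose 2,6-bisphosphate, the strongest activator of phosphofructokinase, are Pfkfb3 and Pfkfb4. Pfkfb4 was at 864 and 780 in WT and at 1139 and 1173 in lu/lu. Its log2 fold change of 0.49 ± 0.14 had the smallest p of the 32 genes (adjusted p 0.418 in limma), and it was 0.44 between the libraries of the shared date and 0.55 between the other pair. Pfkfb3 was slightly lower in lu/lu, with 4190 and 3999 in WT and 3770 and 3926 in lu/lu (log2 fold change -0.09 ± 0.11), a difference of -0.0555 without WT 1 and -0.0505 with quantile normalization.

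The phosphofructokinases, which make the committed step, differed in direction. Pfkp was lower in both lu/lu libraries (8896 and 7394 in WT, 6573 and 7278 in lu/lu, log2 fold change -0.23 ± 0.13), a difference of -0.0964 without WT 1 and -0.363 without WT 2. Pfkm, the muscle isozyme, was slightly higher in both (960 and 1032, 1081 and 1046), with a log2 fold change of 0.10, which was 0.0428 without WT 1 and -0.0446 with the GC content and length trend removed. Pfkl, the liver isozyme, overlapped, with WT values of 6625 and 5360 around the lu/lu values of 6499 and 6371. Gpi1, which isomerizes glucose 6-phosphate, Aldoa, which splits the sugar, and Tpi1, which interconverts the products, all had WT 1 highest and WT 2 lowest: 24323 and 20640 for Gpi1, 32415 and 23266 for Aldoa, and 18417 and 14531 for Tpi1. Their lu/lu libraries lay inside those ranges, at 23471 and 23531, 28089 and 27502, and 16268 and 15096. Aldoc, the brain isozyme, was low, at 36.1 to 52.4.

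All 5 pay-off enzymes had WT 2 as the lowest library, and in none did the genotypes separate. Pkm (pyruvate kinase) was at 45450 and 38305 in WT and 47194 and 44826 in lu/lu. Eno1 (enolase) was at 9592 and 6049 in WT and 7116 and 7574 in lu/lu, and Pgk1 (phosphoglycerate kinase) at 2327 and 1496 and at 1757 and 1601. Both WT libraries of these 2 genes enclosed both lu/lu libraries. Pgam1 (phosphoglycerate mutase) hardly varied, from 3972 to 4489. Gapdh (glyceraldehyde 3-phosphate dehydrogenase) was highest in lu/lu 2, with 1485 and 1232 in WT and 1323 and 1779 in lu/lu.

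Ldha, which turns pyruvate into lactate, did not overlap between genotypes, and its difference rested on 1 library. It was at 30363 in WT 1, but at 20972 in WT 2, next to 20479 and 19836 in lu/lu. The log2 fold change was -0.32 ± 0.17 with both WT libraries, -0.61 between the libraries of the shared date and -0.03 between the other pair. Ldhb, the isozyme that favours the reverse reaction, showed the mirror image: 334 in WT 1, 614 in WT 2, and 564 and 487 in lu/lu. Pdk1, a kinase that inhibits pyruvate dehydrogenase, stayed between 4690 and 5331.

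In the oxygen-sensing group Hif1a, the regulated subunit of HIF-1, was lower in both lu/lu libraries (4308 and 4064 in WT, 4017 and 3488 in lu/lu, log2 fold change -0.16 ± 0.12). That difference was -0.0207 with the GC content and length trend removed and -0.0587 without lu/lu 2. The prolyl hydroxylases that target it stayed close, Egln1 at 1740 to 1998 and Egln3 at 1216 to 1331. Ankrd37, a small HIF-1 target, was the one gene of the group higher in both lu/lu libraries, at 31.8 and 28.9 in WT and 33.1 and 49.3 in lu/lu. Its log2 fold change of 0.40 ± 0.43 was 0.122 without lu/lu 2. P4ha1, a collagen prolyl hydroxylase, resembled Ldha: 3863 in WT 1, and 2391, 2424 and 2424 in WT 2, lu/lu 1 and lu/lu 2. Vegfa, the vessel growth factor, was at 1804 in WT 1 and at 1218, 1222 and 1388 in the other 3. Bhlhe40, a repressor induced by hypoxia, ran from 72.3 in WT 2 to 226 in WT 1, with 158 and 212 in lu/lu, and Bnip3, a mitophagy receptor, from 325 in WT 1 to 425 in WT 2.

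The order of the 4 libraries was uneven in these genes. WT 1 was the highest of the 4 libraries in 18 of 32 genes, against 27.9% of all genes, and WT 2 was the lowest in 19 of 32, against 32.2%. The median difference WT 1 minus WT 2 was 0.20 on the log2 scale over the 32 genes and 0.01 over all genes, and it was positive in 26 of 32, against 10463 of 20531 genes. The lu/lu libraries differed by a median of 0.01. In 24 of 32 genes the gap between the WT libraries was larger than the genotype difference, which was so for 61.4% of all genes, and the gap between the lu/lu libraries was larger in 12 of 32, against 41.6%. A gap between single libraries is compared there with a difference of means of 2, which favours the gap. With equal library totals or quantile normalization, both tried after seeing the data, WT 1 was highest in 16 of 32, against 23.9% and 28.5% of all genes. What the dates in the column names refer to is not stated, and their part in the gap between the WT libraries was not tested.

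The calls depended on which WT library was in the fit, as the order of the WT libraries in these genes fixes in part. The list median was 0.08 without WT 1 and -0.06 without WT 2. Without WT 1, limma called 8 of 32, against 23.0% of all genes: 7 were higher in lu/lu (Slc2a1, Hk3, Pfkl, Pfkfb4, Gapdh, Eno1 and Bhlhe40) and 1 was lower (Slc16a1). Without WT 2, it called 9 of 32, against 13.8%: 2 were higher (Pfkfb4 and Ldhb) and 7 lower (Slc16a1, Pfkp, Pgk1, Eno1, Ldha, Vegfa and P4ha1). Each of these fits estimates the spread from the 2 lu/lu libraries alone and assumes that the single WT library varies like them. Only 3 of the 32 were called in both: Pfkfb4 (0.57 without WT 1 and 0.42 without WT 2) and Slc16a1 (-0.26 and -0.42) in the same direction, and Eno1 in opposite directions (0.28 and -0.39). Over all genes 970 were called in both, 873 of them in the same direction. Without lu/lu 1 or without lu/lu 2, limma called 0 of 32, against 0.00501% and 0.241% of all genes.

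**Figure D2:**
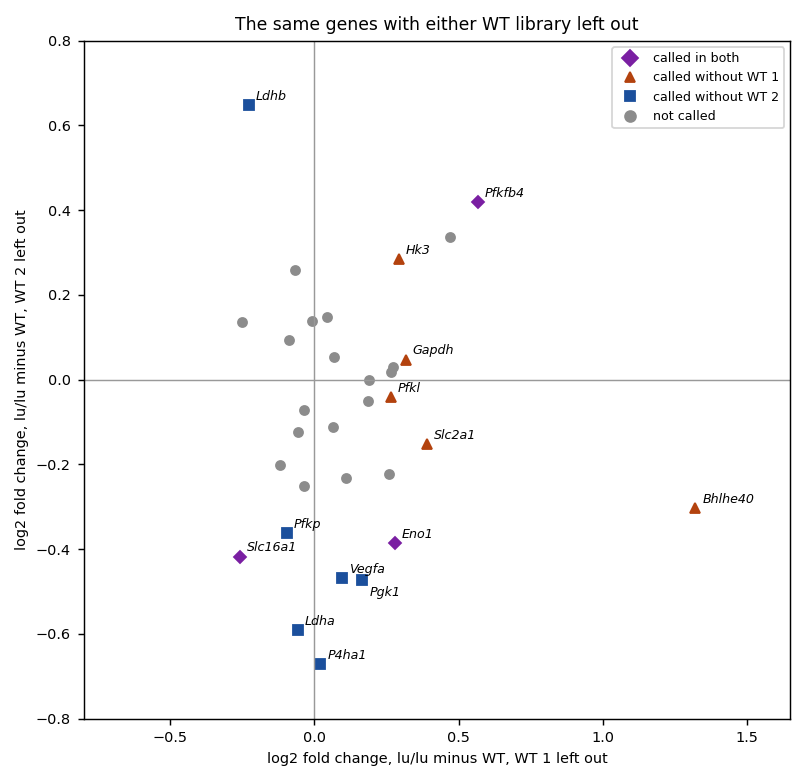
Log2 fold change of each gene between lu/lu and WT GMPs with WT 1 left out (horizontal) and with WT 2 left out (vertical); symbols show in which fit the adjusted p of limma was under 0.08. Pfkfb4 and Slc16a1 keep their sign on both axes, whereas Eno1 (0.28 and -0.39) and Bhlhe40 (1.32 and -0.30) change it.

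The genotype difference also varied with base composition. Over all genes the median log2 fold change was -0.17 in the 5026 genes with the lowest GC content of exons and 0.17 in the 5026 with the highest. The 32 genes had a median GC content of 52.3%, against 49.6% for genes tested, and 11 of them were among the 5026 with the highest. With the trend of each library on GC content and length removed, 8 of the 32 were positive instead of 18, and the list median was -0.08 instead of 0.04, while that of all genes was -0.04. Pfkfb4 (0.36) and Slc16a1 (-0.23) kept their direction under this correction.

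The other genes of the pathway were taken from a list of 98. Of these, 81 were tested, and limma called 0. The lu/lu libraries were both higher in 20 of them, against 21.7% of all genes, and both lower in 11, against 22.1%. DESeq2 called 4 of the 74 with an adjusted p, against 1.40% of all genes: Slc2a6, Epo and Anxa2 higher and Dlat lower. Slc2a6, a sugar carrier of myeloid cells, was at 306 and 210 in WT and 490 and 519 in lu/lu, a log2 fold change of 0.99 ± 0.22 (adjusted p 0.326 in limma and 0.0192 in DESeq2). Epo, the hypoxia-induced hormone of red cell formation, was at 38.8 and 22.2 in WT and 176 and 83.3 in lu/lu. Dlat, a subunit of pyruvate dehydrogenase, was at 4396 and 3927 in WT and 3084 and 2871 in lu/lu. Anxa2, a membrane-binding protein, was at 5281 and 4482 and at 6989 and 6580. Pgls, of the pentose phosphate pathway, was at 3045 and 2892 in WT and 4172 and 3756 in lu/lu, but its difference of 0.42 became -0.168 once the GC content and length trend was removed.

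By group, to be read against the same 21.7% and 22.1% of all genes, the lu/lu libraries were both higher in 3 and both lower in 0 of 15 other glycolysis enzymes, in 2 and 2 of 7 pentose phosphate genes, and in 3 and 3 of 12 genes of pyruvate entry to mitochondria. The counts were 3 and 1 of 9 for gluconeogenesis and glycogen, 2 and 0 of 5 for other sugar transporters, 1 and 1 of 10 for the oxygen sensing machinery, and 6 and 4 of 24 for other hypoxia-responsive genes.

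Isozyme choice was compared as the share of each gene in its family per kilobase of exon, which does not depend on the scaling of a library. In GMPs Hk3 made up 74.5% and 76.1% of hexokinase transcripts in WT and 80.1% and 79.8% in lu/lu, and the genotypes did not overlap. Hk1 took 11.8% and 11.8% in WT, and 10.3% and 9.51% in lu/lu. Pfkfb4 made up 24.2% and 23.2% of the pair with Pfkfb3 in WT and 31.9% and 31.7% in lu/lu. Pfkp made up 34.2% and 33.2% of phosphofructokinases in WT and 27.4% and 30.0% in lu/lu, and Slc16a3 was 6.32% and 5.99% of the MCT pair in WT and 8.01% and 8.87% in lu/lu. None of these shares was tested. The glucose transporters gave no such separation: Slc2a1 was 68.9% and 54.9% in WT, and 63.0% and 62.1% in lu/lu. Ldha overlapped too, at 97.7% and 94.2% of its pair in WT and 94.5% and 95.1% in lu/lu. So did Egln1 (54.5% and 51.4% in WT, 52.3% and 54.8% in lu/lu) and Aldoa. In the counts of single genes, 43.9% of all genes tested had no overlap between genotypes.

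The 416b line used another set. Hk1 was its main hexokinase, at 55.8% with the Empty vector and 60.2% with PLZF-Flag, while Hk3 was 32.3% with the Empty vector and less with PLZF-Flag. Pfkp was 8.11% and 8.43% of phosphofructokinases there, and Egln3 75.8% and 70.4% of the Egln pair, against 45.2% to 48.6% in GMPs. Ldha was all but alone in 416b, with Ldhb at 2 and 4 reads, whereas Ldhb was 2.27% to 5.82% of the pair in GMPs. The libraries of the 2 systems were made with different kits and read lengths, so these shares are set side by side without a test.

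**Figure D3:**
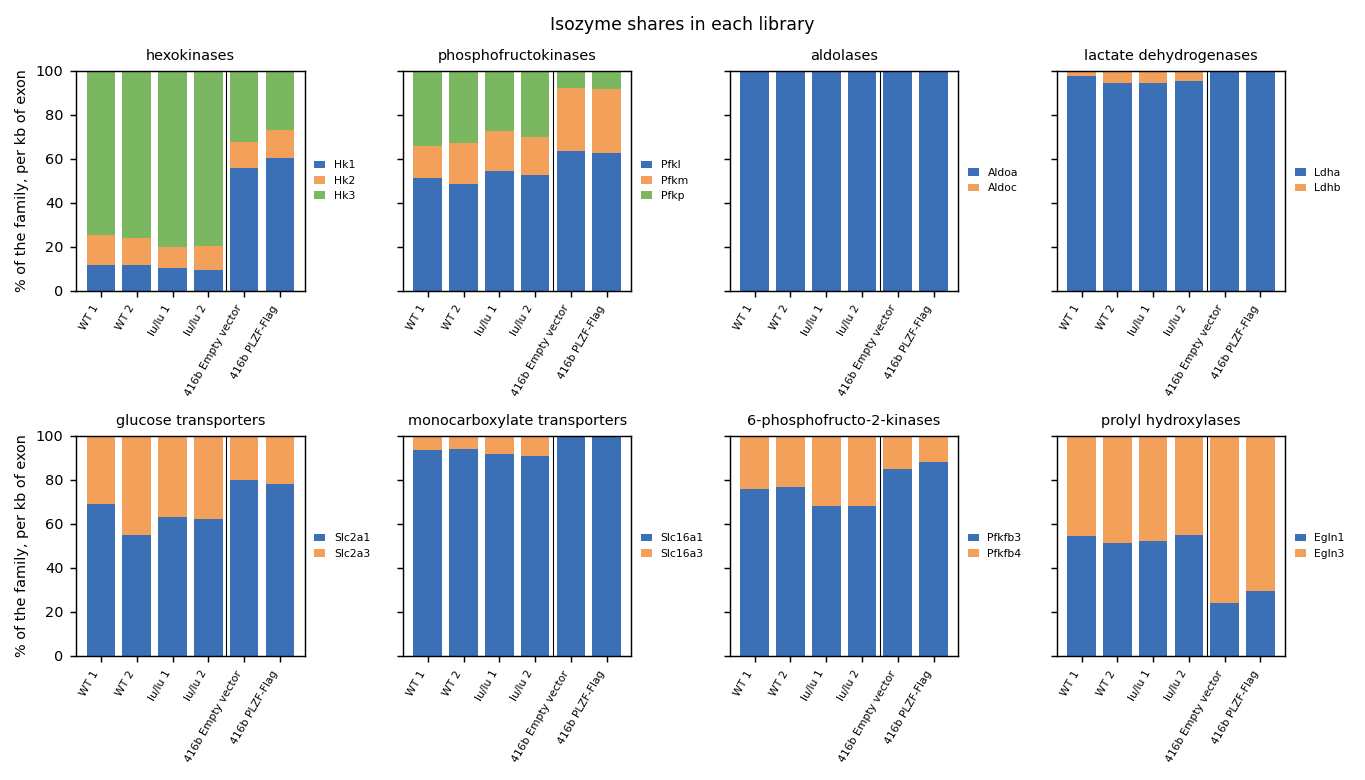
Stacked bars give the share of each isozyme in its family, in percent of normalized counts per kilobase of exon, in the 4 GMP libraries (left of the line) and the 2 libraries of 416b cells (right of it); Aldoc is not listed in 416b and is drawn at 0. Hk3 fills 74.5% to 80.1% of the hexokinase bars in GMPs and 32.3% in 416b with the Empty vector, and Egln3 is larger in 416b.

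With PLZF gain in 416b cells most ratios were small. With 1 library per condition there is no test, and the intervals given are exact 95% binomial intervals for counting error only. No gene of the 30 with a mean of at least 10 was higher by 0.5 or more on the log2 scale (2.18% of all genes were), and 2 were lower by as much, Slc16a3 and Ankrd37 (4.06% of all genes). The interval lay above 0 in 7 of 30 (16.1% of all genes) and below 0 in 8 of 30 (16.0%). Such an interval narrows with more reads, so these shares depend on abundance as well. Aldoa, with 64346 reads with the Empty vector, had an interval above 0 at a ratio of 0.02. Across the 30 genes the median log2 ratio (PLZF-Flag over Empty vector) was 0.02, and that of all genes -0.00014. Among the abundant enzymes the ratios were small: Aldoa 0.02 (38941 and 39616), Pkm 0.08 (69959 and 74098), Ldha 0.01 (37620 and 37954), Tpi1 0.03 (16583 and 16879) and Gpi1 0.06 (22264 and 23259).

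In the oxygen-sensing group 7 of 8 genes had ratios below 0, against 50.0% of all genes, and 4 of 8 had intervals below 0, against 16.0%. Egln1, at 0.05, was the exception, and the intervals of 4 genes included 0. In the pathway list, 4 of 10 genes of the oxygen sensing machinery and 14 of 22 other hypoxia-responsive genes had ratios below 0, and the intervals of 2 and 6 lay below 0. Cell type markers differed between the same 2 libraries: 4 of 9 GMP genes had intervals below 0 and 2 above, 2 of 9 monocyte genes below and 1 above, and 5 of 8 erythroid and megakaryocyte genes above and 1 below. Lyz2, the lysozyme of myeloid cells, had a log2 ratio of -0.72, Itgam (CD11b) of -0.56 and Gata1, the erythroid factor, of 1.45. The part of these differences in the ratios was not tested. Egln3 was at 5845 with the Empty vector and 4592 with PLZF-Flag, a log2 ratio of -0.35 (-0.41 to -0.29). Bnip3 was at 819 and 724 (-0.18, -0.34 to -0.02), and Vegfa at 718 and 636 (-0.17, -0.34 to -0.01). Ankrd37 was at 56.9 and 34.7, from 94 and 21 reads (-0.70, -1.47 to -0.02). Hif1a itself was at 6247 and 6176 (-0.02, -0.07 to 0.04).

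Outside that group, Hk3 was at 3109 with the Empty vector and 2460 with PLZF-Flag (-0.34, -0.42 to -0.26), and Pfkfb4 at 201 and 159 (-0.34, -0.68 to -0.01). Slc16a3 was barely expressed, with 28 reads against 2 (-2.06, -5.47 to -0.37), and its ratio was -1.02 with a pseudocount of 10. Gapdh was at 218 and 165 (-0.40, -0.74 to -0.08). The largest ratios above 0 with an interval above 0 were Slc2a3 (0.15, 0.05 to 0.26), Pfkp (0.11, 0.03 to 0.19) and Pdk1 (0.11, 0.04 to 0.18). The remaining genes, Slc2a1, Slc16a1, Hk1, Hk2, Pfkl, Pfkm, Pfkfb3, Pgam1, Eno1, Egln1, P4ha1 and Bhlhe40, had intervals that included 0, as had Tpi1, Ldha and Hif1a. Of the other pathway genes with a mean of at least 100, the 5 largest ratios in size were all below 0: Slc2a6 (-0.81, -1.22 to -0.43), Ndrg1 (-0.54, -0.66 to -0.42), Cxcr4 (-0.29, -0.45 to -0.14), Hmox1 (-0.29, -0.58 to -0.01) and Wsb1 (-0.26, -0.34 to -0.19).

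**Figure D4:**
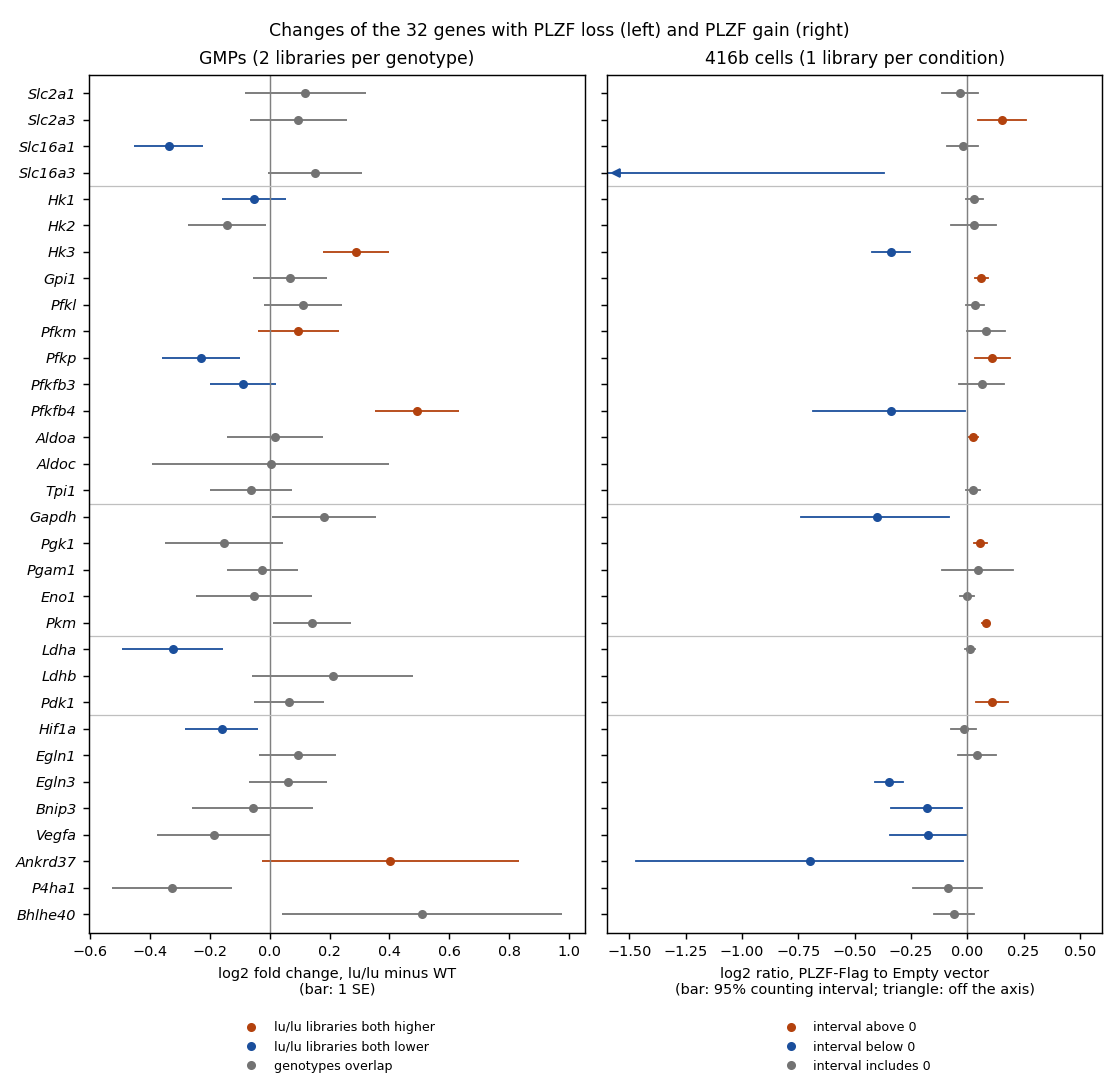
Left, log2 fold change between lu/lu and WT GMPs with 1 SE, coloured where both lu/lu libraries lay above or below both WT libraries; right, log2 ratio (PLZF-Flag over Empty vector) in 416b cells with its 95% counting interval, for the 30 genes with a mean of at least 10. Hk3, Pfkfb4 and Ankrd37 lie right of 0 on the left and left of 0 on the right; the point of Slc16a3 (-2.06) is off the axis.

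Loss and gain share no control sample, so the 2 directions can be read side by side. Of 30 genes in both tables, 3 were higher in both lu/lu libraries and had an interval below 0 with PLZF gain (Hk3, Pfkfb4 and Ankrd37), against 2.93% of 11242 genes. The intervals of Pfkfb4 and Ankrd37 ended close to 0, at -0.01 and -0.02. In GMPs, Ankrd37 was at 31.8 in WT 1 and 33.1 in lu/lu 1. Only Pfkp was lower in both lu/lu libraries with an interval above 0 upon gain, against 3.83%. No gene of the list lay on the same side in both, against 8.58% of all genes. Some myeloid markers lay opposite as well, with Lyz2 at 0.71 in lu/lu GMPs and -0.72 in 416b, Csf2ra at 0.73 and -0.54, and Ccr2 at 0.38 and -0.82 on the log2 scale. Others did not, with Cd14 at 0.45 and 0.15, Spi1 at 0.21 and 0.10, and Irf8 at 0.56 and 0.09. Of 9 monocyte genes in 416b, 2 had intervals below 0 and 1 above. The part of the markers in the pattern was not tested. Among 69 other pathway genes the counts were 6 (Slc2a6, Ndrg1, Anxa2, Mpc1, Pck2 and G6pc3), 1 (Pdk3) and 4. Ndrg1, a stress-induced HIF-1 target, was at 1566 and 1397 in WT and 2064 and 1846 in lu/lu GMPs, and at 1654 and 1140 in 416b cells with the Empty vector and PLZF-Flag. Slc16a1, the clearest of the lower genes in lu/lu, had an interval that included 0 upon gain (-0.02, -0.09 to 0.05). Without WT 1, where a single WT library is less likely to overlap, 9 of 30 genes were opposite instead of 4, against 1236 of 11242 genes.

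Several of these enzymes have copies of their sequence elsewhere in the genome, whose part in the counts was not tested. In the transcript of Pgam1, 93.5% of the stretches of 61 nucleotides, the read length in 416b, were also found elsewhere in the genome (build mm10), as were 92.2% in Pgk1, 85.5% in Gapdh, 69.2% in Eno1, 53.2% in Bnip3 and 32.1% in Pkm. At 100 nucleotides, the read length in GMPs, the shares were 90.0%, 89.8%, 85.1%, 59.0%, 28.8% and 12.5%. GMP reads were sequenced in pairs, and the other read of a pair, which can help to place it, was not considered here. For 19 of the 32 no stretch of 61 nucleotides was found elsewhere, Hk3, Pfkfb4, Slc16a1, Pfkp, Ankrd37 and Egln3 among them. Gapdh was at 329 normalized counts per kilobase of exon in WT GMPs and 52.8 in 416b, against 9564 and 13377 for Aldoa. Pgk1 was at 852 per kilobase in WT GMPs and 9706 in 416b. Eno1b, an intronless copy of Eno1, was listed at 20704 and 20653 in 416b, next to 20420 and 20409 for Eno1. Where counting could split reads between copies, the counts of Gapdh, Pgk1, Pgam1, Eno1 and Bnip3 are uncertain. The ratio of Gapdh in 416b rests on 361 and 100 reads. How reads that fit several places were counted is not given in the sources used here, although the names of the GMP columns speak of unique reads. The 10 genes without overlap in GMPs all had under 10% of such stretches at 100 nucleotides, and the 2 past the fold in 416b had none. Over the listed genes with under 10% at 61 nucleotides, the median log2 ratio in 416b was -0.0165 instead of 0.0188.

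**Figure D5:**
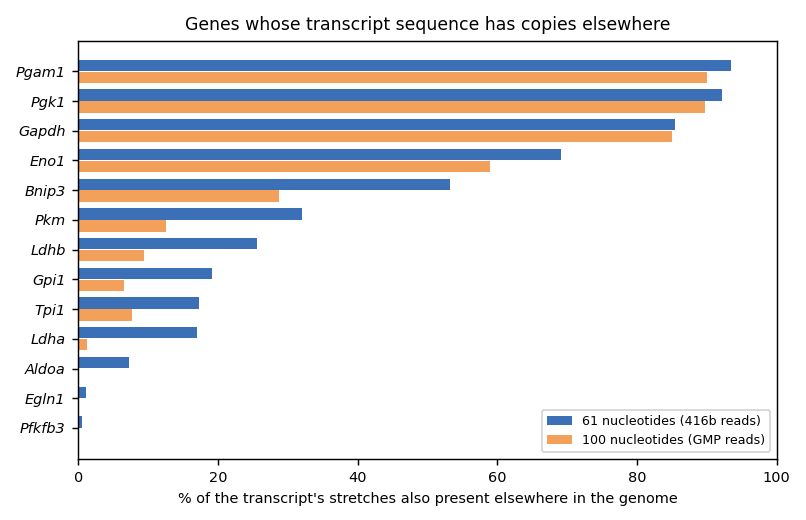
Bars give the share of stretches of a gene's transcript, 61 or 100 nucleotides long, that occur exactly elsewhere in the genome, for the 13 genes with any. Pgam1, Pgk1 and Gapdh exceed 85% at both lengths.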

How the data were processed

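RNA-seq tables of GMPs and of 416b cells were used. The authors used subread-align (mm10), featureCounts and DESeq2 size factors in turn, so the deposited signal values are normalized read counts per gene. The GMP table holds 2 libraries per genotype, although 3 extractions are stated. It also holds fold changes and p-values of the authors, which were not used. The 32 genes, the pathway and marker lists and the tests were chosen with earlier results of these data known.

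Reads were recovered by dividing by the smallest value of a library. In GMPs 100% of values came out whole (within 0.01). In 416b 69.2% and 83.2% did, and 91% and 89.2% of values of at most 500 reads, for reasons not given in the sources used here. In GMPs, genes reaching 10 in 2 or more libraries entered limma-trend 3.58.1 on log2(value + 1), with Benjamini-Hochberg adjustment over 20531 genes and a threshold of 0.08. edgeR 4.0.16 and DESeq2 1.42.0 (R 4.3.3) ran on recovered reads, rounded. Nothing says that the libraries came from separate animals, so p-values measure the spread between these libraries only. The 416b ratios had a pseudocount of 1 and exact (Clopper-Pearson) 95% intervals. Named genes were all 32, Zbtb16, and the 5 pathway genes with the smallest p without overlap (GMPs) or the largest ratio (416b). Aldoa has a second row of low counts, which was left out of the list. Gene models were GENCODE M21, promoters RefSeq. The fits were also run on simulated counts, which held neither a gap between the WT libraries nor a GC trend. GMP libraries with a shared date were also compared alone. Chromatin samples were not used here.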

Additional observations from a re-analysis of the deposited data

How the results depend on the processing

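In GMPs, no gene of the list was called under either other filter (none, or a mean of 100), pseudocounts of 0.1 or 10, a threshold of 0.05, equal library totals, quantile normalization, the GC content and length trend removed, no intensity trend, edgeR or DESeq2. Leaving out each library in turn gave 0 to 9 called genes of the list, 0 to 22 called pathway genes of 81 (22 without WT 1 and 22 without WT 2, where 23.0% and 13.8% of all genes were called), 14 to 29 genes of the list without overlap between genotypes (29 without WT 1 and 26 without WT 2, against 83.5% and 78.2% of all genes, and 14 and 15 without lu/lu 1 and lu/lu 2, against 63.6% and 62.4%) and a list median of -0.0603 to 0.0826. DESeq2 called 4 pathway genes where limma called 0. The list median ranged from -0.0781 (GC content and length trend removed) to 0.0826 (without WT 1), against a spread of 0.194 between library medians, and it was -0.0718 between the libraries of the shared date. Where the main change was at least its standard error, the sign turned for Gapdh (-0.0102 with the GC content and length trend removed, -0.0318 without lu/lu 2 and 0.395 without lu/lu 1), Pkm (-0.0824) and Pgls (-0.168) with that trend removed, for P4ha1 (0.0198 without WT 1, -0.672 without WT 2) and for Bhlhe40 (-0.304 without WT 2, 1.32 without WT 1). Of 530 values of named genes under the alternatives in GMPs, 40 had another sign than the main one, counting changes smaller than their standard error.

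In 416b, 0 genes of the list were past the fold at a mean of at least 100 and 1 (Slc16a3) at a log2 ratio of 1 in size, against 2, and none of 148 ratios under the alternatives was turned in sign where its interval left out 0. The number of genes opposite in gain and loss was 16 by sign alone (47.6% of all genes) and 9 without WT 1 (1236 of 11242 genes), settings chosen after seeing the data, against 4. Isozyme shares depend on the length used. With no length scaling the means over the 4 GMP libraries were Hk3 64.0%, Pfkl 42.1%, Aldoa 99.8%, Ldha 97.7%, Slc2a1 44.5%, Pfkfb3 80.1% and Egln1 60.6%, against 77.6%, 51.6%, 99.9%, 95.4%, 62.2%, 72.2% and 53.2% per kilobase of exon, and per kilobase of the longest transcript Hk3 was 72.3%, Pfkl 57.6% and Slc16a1 91.2%. No paired analysis was possible because the RNA-seq libraries carry no replicate numbers and share only 1 date between genotypes, WT 1 with lu/lu 2.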
